A study of Mus musculus with 8 samples.

Results

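The IGF binding proteins and IGF axis genes described here are Igfbp2, Igfbp3, Igfbp4, Igfbp5, Igfbp6, Igfbp7, Igf1, Igf1r and Igf2r, which are 9 of the 27775 gene rows of each count table. They were taken by symbol, and each symbol named 1 row in both tables. They were chosen by their UMI counts over cell groups and carcinoma clusters in an earlier reading of these same tables, so all levels below are descriptions. The study profiled pancreatic ductal adenocarcinoma of KPC mice, whose alleles include LSL-Trp53R172H/+ and Pdx-1-Cre, by droplet single-cell RNA sequencing. The Pdx-1 promoter directs Cre to the pancreatic epithelial lineage, so stromal and immune cells of the tumor carry the unrecombined alleles. One medium-size and one large-size tumor from untreated control mice were sequenced, each as 4 technical replicates pooled in 1 table, and the labels give no age. Each tumor is therefore 1 sample, no p-value can be given, and every interval below is a 95% interval that covers counting error only.

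IGF1 is a secreted growth factor that acts through the receptor tyrosine kinase IGF1R and from there on PI3K-AKT and MAPK signaling. IGF2R, the cation-independent mannose 6-phosphate receptor, takes up IGF2 and lysosomal enzymes without kinase signaling. IGFBP2 to IGFBP6 are secreted carriers that hold IGFs with high affinity and can also act without them, whereas IGFBP7 binds IGFs weakly and is an extracellular matrix protein known from tumor vessels. In pancreatic cancer, fibroblasts and macrophages are known sources of IGFs.

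The medium-size tumor held 2812 cells and 20301669 unique molecular identifiers (UMIs, single captured transcripts), and the large-size tumor 1533 cells and 2239012 UMIs. The median cell had 5456.5 UMIs in the first and 1037 in the second, and 5 cell barcodes occurred in both tables. Clusters were named from marker genes only. Epithelial-like clusters are also called carcinoma clusters or states here, and whether each was malignant was not tested. The medium-size tumor gave 2331 epithelial-like cells in 8 clusters, 238 monocyte/macrophage-like, 74 mesothelial-like, 67 stromal-like and 38 endothelial-like cells, with 64 cells of both epithelial and macrophage markers left unnamed. The large-size tumor gave 1219 epithelial-like cells in 7 clusters, 253 monocyte/macrophage-like, 50 stromal-like and 11 endothelial-like cells and no mesothelial-like cluster. The stromal-like clusters had 7 of 10 stromal markers in both tumors, and smooth muscle and pericyte genes such as Tagln were among their leading genes. Levels are UMIs of a gene per 1000000 UMIs summed over the cells of a group (CPM), which are not divided by gene length, since the 3′ libraries count transcript ends.

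By UMIs, Igfbp7 and Igfbp4 were the most often captured members, with 24396 and 11671 UMIs in the medium-size tumor and 2770 and 776 in the large-size one. Igfbp3 had 2393 and 78 UMIs, Igfbp5 455 and 29, Igfbp6 349 and 7, and Igfbp2 67 and 7. Igf1 had 122 and 47 UMIs, Igf1r 124 and 4, and Igf2r 279 and 48. Statements on the 3 genes Igfbp2, Igfbp6 and Igf1r in the large-size tumor thus rest on fewer than 10 UMIs each.

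In GRCm38 (GENCODE M21), Igfbp2 (chromosome 1, 72824503 to 72852474, plus strand) and Igfbp5 (72857932 to 72874884, minus strand) lie tail to tail, 5458 bases apart. Igfbp3 (chromosome 11, 7206086 to 7213923, minus strand) lies 3540 bases from Igfbp1. Igfbp4 is further along the same chromosome (99041244 to 99054392, plus strand). Igfbp7 (chromosome 5, 77349240 to 77408041, minus strand) overlaps Polr2b of the opposite strand within its last 500 bases, where 3′ reads fall, so its count depends on strand being used in counting. The 250 bases before the RefSeq start (GRCm38.p6) are printed for Igfbp3, Igfbp4 and Igfbp7, because these 3 genes took the highest levels in the same carcinoma clusters. Capitals mark matches, on either strand, to 3 motifs. The Sp1 box was searched as GGGCGG. The TATA box was searched as TATAAA. The E-box type known to be bound by SNAIL and ZEB factors was searched as CACCTG.
Igfbp3, chr11:7213924-7214173, minus strand: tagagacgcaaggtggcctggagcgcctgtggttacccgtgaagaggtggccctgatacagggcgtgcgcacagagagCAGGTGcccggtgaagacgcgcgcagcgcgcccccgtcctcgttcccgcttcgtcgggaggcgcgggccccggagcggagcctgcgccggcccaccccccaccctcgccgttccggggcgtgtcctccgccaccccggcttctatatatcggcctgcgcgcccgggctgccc
Igfbp4, chr11:99040994-99041243, plus strand: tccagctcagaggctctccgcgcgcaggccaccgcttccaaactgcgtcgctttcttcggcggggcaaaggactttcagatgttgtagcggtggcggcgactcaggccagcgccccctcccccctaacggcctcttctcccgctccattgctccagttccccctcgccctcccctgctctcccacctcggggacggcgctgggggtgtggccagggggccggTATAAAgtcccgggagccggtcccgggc
Igfbp7, chr5:77408046-77408295, minus strand: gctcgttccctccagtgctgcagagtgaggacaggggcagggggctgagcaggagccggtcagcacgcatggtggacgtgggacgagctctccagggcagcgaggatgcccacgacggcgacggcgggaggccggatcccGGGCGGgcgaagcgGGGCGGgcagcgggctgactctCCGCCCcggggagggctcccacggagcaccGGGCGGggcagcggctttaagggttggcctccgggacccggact
The Igfbp3 window held 1 E-box match at 172 bases before the start, the Igfbp4 window 1 TATA box at 28 bases, and the Igfbp7 window 4 Sp1 boxes. Of 32841 mouse promoter windows, 17.2% held the E-box, 12.4% the TATA box and 32.7% the Sp1 box. An AP-1 site (searched as TGANTCA, in 6.75% of windows) and a TEAD-type site (searched as GGAATG, in 12.6%) had no match in these 3 windows. No searched motif was shared by the 3 windows, no matches overlapped, and a match is a description of the letters only. Their GC content was 73.2%, 69.2% and 74%, against a median of 52.4% over all windows.

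Most IGF axis genes had their highest level in stromal-like cells of the medium-size tumor. There, 7 of the 9 genes (Igfbp2, Igfbp3, Igfbp4, Igfbp5, Igfbp7, Igf1 and Igf2r) were highest in the stromal-like cells. Among genes with at least 50 UMIs outside the stromal-like cells, which Igfbp2 with 25 did not reach, 6 of 8 members and 19.3% of all 11105 genes peaked there. With cells classed by their own markers instead of by cluster, Igfbp5 and Igfbp7 peaked in endothelial-like cells. With the members and pathway genes left out of the clustering, Igfbp7 did as well. At resolution 0.4 and with 20 principal components no stromal-like cluster was named in that tumor, so the order has no stromal-like value there. Of the 7 members with at least 50 UMIs in epithelial-like cells, 6 were at least 2-fold higher in stromal-like than in epithelial-like cells and none was lower, and 11.8% of all such genes were that much higher and 17.1% that much lower. The large-size tumor had 2 of 2 higher, beside 8.66% of all such genes. In the medium-size tumor, 8 members had at least 50 UMIs outside their highest group. A single group stood at least 2-fold above every other for 3 of them (Igfbp6, Igf1 and Igf2r), beside 14.7% of all such genes. The Igf2r ratio of stromal-like over mesothelial-like cells was 2.36 (1.01 to 5.96). The large-size tumor had 3 of 3 (Igfbp3, Igfbp4 and Igfbp7), beside 23.8%. The median cell held 3 of the 9 genes in the stromal-like and mesothelial-like groups, 2 in the endothelial-like group and 1 in the epithelial-like group when every cell of the medium-size tumor was thinned to 2500 UMIs. In single-cell sums, a lower level per cell and fewer cells with the transcript cannot be told apart, so shares of cells are given where they help.

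**Figure D1:**
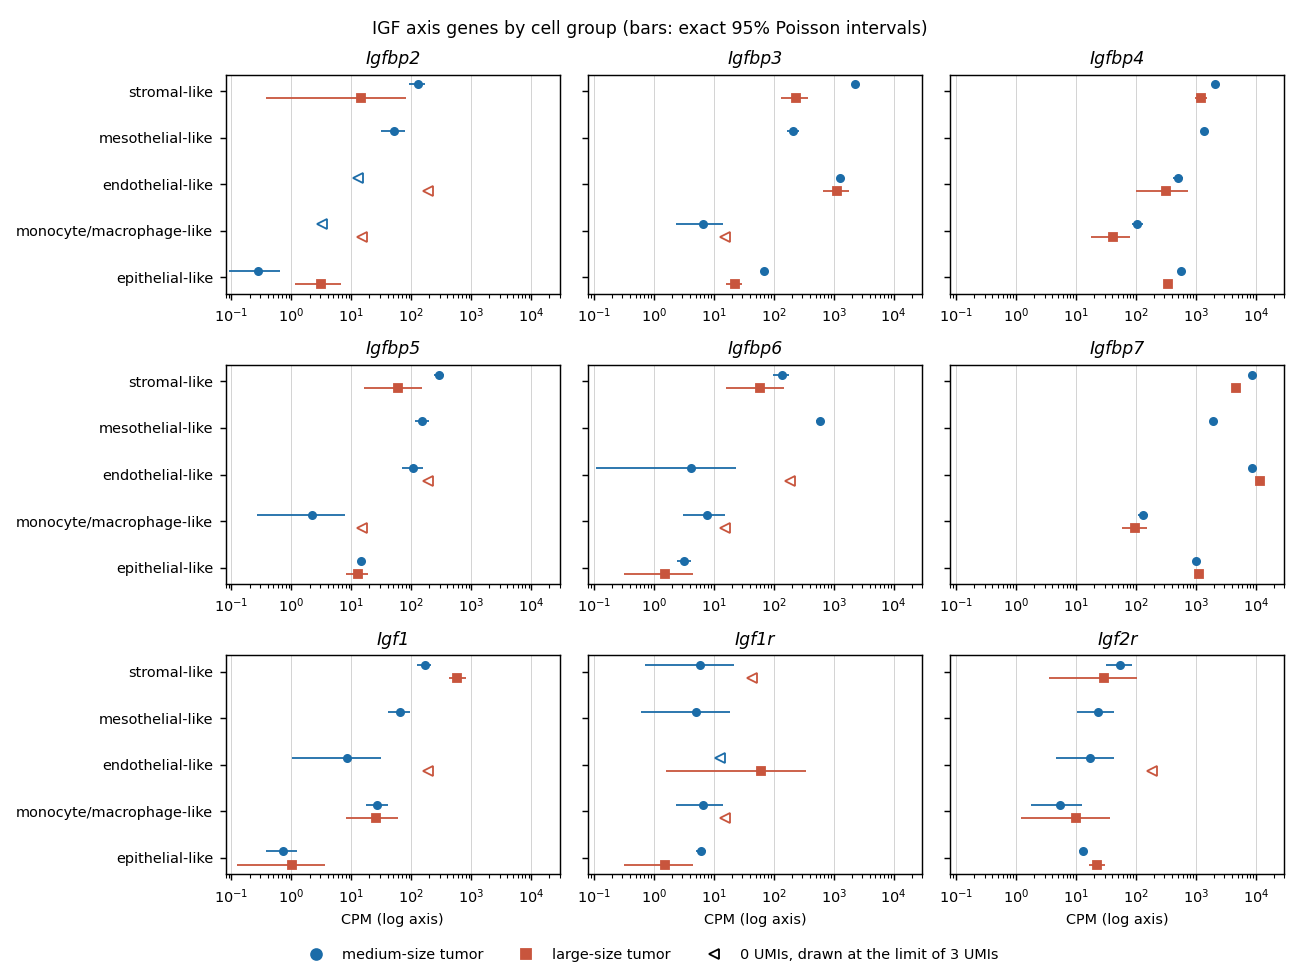
Level of each IGF axis gene in CPM (log axis) by cell group in the medium-size tumor (blue circles) and the large-size tumor (red squares), with exact 95% Poisson intervals. Stromal-like cells sit at the right for most genes, Igfbp6 peaks at 587 CPM in mesothelial-like cells, Igfbp7 is at 8575 CPM in endothelial-like cells in the medium-size tumor, and open triangles mark groups with 0 UMIs at their limit of 3 UMIs.

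Igfbp7 was high in stromal-like and endothelial-like cells. In the medium-size tumor its level was 8655 CPM (8341 to 8977) in stromal-like, 8575 CPM (8205 to 8957) in endothelial-like, 1944 CPM in mesothelial-like, 1018 CPM in epithelial-like and 131 CPM in monocyte/macrophage-like cells. Stromal-like and endothelial-like cells did not differ beyond counting error (ratio 1.01, 0.953 to 1.07). The 11 epithelial markers summed to 4245 CPM in these endothelial-like cells, 36.8% of the epithelial-like level, against 5.60% in the large-size tumor, and their part in the endothelial-like levels of the medium-size tumor was not tested. The order in the large-size tumor was 11578 CPM (9970 to 13372) in endothelial-like cells, 4754 CPM in stromal-like, 1145 CPM in epithelial-like and 96.8 CPM in monocyte/macrophage-like cells. After thinning, Igfbp7 was found in 97.0% of stromal-like and 61.1% of epithelial-like cells in the medium-size tumor.

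Igfbp3, the main carrier of circulating IGFs, had the steepest contrast between stroma and carcinoma among the 3 members with over 500 UMIs. It stood at 2274 CPM (2115 to 2443) in stromal-like, 1282 CPM in endothelial-like, 209 CPM in mesothelial-like, 68.8 CPM in epithelial-like and 6.52 CPM in monocyte/macrophage-like cells (medium-size tumor), a stromal-to-epithelial ratio of 33.1 (30.2 to 36.2). The large-size tumor had 1127 CPM in endothelial-like (18 UMIs), 235 CPM in stromal-like (16 UMIs) and 22.5 CPM in epithelial-like cells, with no UMI in monocyte/macrophage-like cells. The endothelial-like cells in the medium-size tumor had 3 of 7 members at least 2-fold above the epithelial-like cells (Igfbp3, Igfbp5 and Igfbp7), beside 13% of all genes.

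Igfbp4, a carrier that the protease PAPP-A cleaves, was spread more evenly. In the medium-size tumor it stood at 2118 CPM in stromal-like, 1364 CPM in mesothelial-like, 561 CPM in epithelial-like, 505 CPM in endothelial-like and 106 CPM in monocyte/macrophage-like cells. The epithelial-like and endothelial-like levels did not differ beyond counting error (ratio 0.901 for the latter over the former, 0.745 to 1.08), in endothelial-like cells that held epithelial markers as given above. The large-size tumor gave the same order at lower levels, with 1218 CPM in stromal-like and 347 CPM in epithelial-like cells.

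Igfbp6, which prefers IGF2 over IGF1, marked the mesothelial-like cells. It reached 587 CPM (514 to 668) there, 136 CPM in stromal-like cells and 3.21 CPM in epithelial-like cells, and 230 of its 349 UMIs lay in the 74 mesothelial-like cells. Igfbp6 was also among the leading genes of that cluster. It still peaked in mesothelial-like cells with the members and pathway genes left out of the clustering, and with cells classed by their own markers. At resolution 0.4 and with 20 principal components, 74 and 73 of the 74 cells fell in unnamed clusters, and Igfbp6 was then highest in monocyte/macrophage-like cells among the named groups. Of 7 members tested, 4 were at least 2-fold above the epithelial-like cells in the mesothelial-like cells (Igfbp3, Igfbp4, Igfbp5 and Igfbp6), beside 10.3% of all genes. The stromal marker list was at 12533 CPM in these mesothelial-like cells and at 14577 CPM in the stromal-like ones, and its part in the shared levels was not tested.

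Igfbp5, a carrier that binds matrix, was at 292 CPM (237 to 356) in stromal-like, 153 CPM in mesothelial-like, 106 CPM in endothelial-like and 14.4 CPM in epithelial-like cells (medium-size tumor). The 97 stromal-like UMIs came from 9 of 67 cells (13.4%), and the 60 mesothelial-like UMIs from 15 of 74 cells (20.3%). Igfbp2 was nearly limited to 2 groups there, with 42 UMIs in stromal-like (127 CPM) and 20 in mesothelial-like cells (51.1 CPM) and 5 UMIs in all epithelial-like cells. In the large-size tumor 6 of its 7 UMIs lay in cluster 9, a group of 17 epithelial-like cells led by Upk3a, Sprr2f and Krt15, at 323 CPM (119 to 704), and Igfbp2 was one of that cluster's leading genes.

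Igf1, the ligand, was highest in stromal-like cells, then in mesothelial-like and monocyte/macrophage-like cells, and was rare in carcinoma cells. The medium-size tumor had 166 CPM (125 to 216) in stromal-like, 63.9 CPM (41.3 to 94.3) in mesothelial-like, 27.2 CPM (17.6 to 40.1) in monocyte/macrophage-like, 8.49 CPM in endothelial-like and 0.718 CPM (0.383 to 1.23) in epithelial-like cells. In the large-size tumor 40 of the 47 UMIs were in the 50 stromal-like cells (587 CPM, 419 to 799), 5 in monocyte/macrophage-like cells (25.5 CPM) and 2 in epithelial-like cells. The monocyte/macrophage-like levels of the tumors did not differ beyond counting error (ratio 0.939, 0.281 to 2.50). The other ligands were rarer still, since Igf2 had 36 UMIs in the medium-size and 1 in the large-size tumor, and Ins2 had none in the medium-size tumor.

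The receptors were low in every group. Among the groups with a UMI, Igf1r ranged from 5.11 CPM in mesothelial-like to 6.52 CPM in monocyte/macrophage-like cells in the medium-size tumor, with 112 of its 124 UMIs in epithelial-like cells and none in endothelial-like cells, which allows up to 12.7 CPM. Its stromal-like and epithelial-like levels did not differ beyond counting error (ratio 0.973, 0.116 to 3.60). Igf2r stood at 54.2 CPM (32.1 to 85.7) in stromal-like, 23.0 CPM in mesothelial-like, 17.0 CPM in endothelial-like, 13.0 CPM in epithelial-like and 5.43 CPM in monocyte/macrophage-like cells. In the large-size tumor it was at 29.3 CPM on 2 UMIs in stromal-like and 22.5 CPM in epithelial-like cells (ratio 1.31, 0.153 to 5.01). There, 596 of 1533 cells had fewer than 500 genes, and without them Igf2r was highest in epithelial-like cells.

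Monocyte/macrophage-like cells had the lowest levels of Igfbp3, Igfbp4, Igfbp5, Igfbp7 and Igf2r in the medium-size tumor. There 5 of 7 members were at least 2-fold below the epithelial-like cells (Igfbp3, Igfbp4, Igfbp5, Igfbp7 and Igf2r), beside 29.4% of all genes, and Igfbp6 was above them on 7 UMIs (ratio 2.37, 0.913 to 5.20), beside 9.79% of all genes. Both members tested in the large-size tumor (Igfbp4 and Igfbp7) were lower, beside 29.7% of all genes, on 8 and 19 UMIs in monocyte/macrophage-like cells. Igfbp3, Igfbp5 and Igf2r in the medium-size tumor had 6, 2 and 5 UMIs there. All these reached the minimum UMI count only through the epithelial-like cells, where they were high, so their calls are a description only. Igfbp4 and Igfbp7 in the medium-size tumor, with 98 and 121 UMIs, also reached it in the monocyte/macrophage-like cells alone. Igfbp4 and Igfbp7 in these cells were at 19.0% and 12.9% of the epithelial-like level in the medium-size tumor, while the 11 epithelial markers summed to 5.75% of theirs. The part of free RNA from other cells in these low values was not tested.

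Although stromal-like levels were higher, carcinoma cells held most of the transcripts of the abundant binding proteins. Epithelial-like cells made 89.1% of all UMIs of the medium-size tumor and held 86.9% of the Igfbp4, 75.5% of the Igfbp7 and 52.0% of the Igfbp3 UMIs. They held 57.4% of the Igfbp5, 16.6% of the Igfbp6, 10.7% of the Igf1 and 7.46% of the Igfbp2 UMIs. Stromal-like cells made 1.64% of all UMIs and held 62.7% of the Igfbp2, 45.1% of the Igf1, 31.6% of the Igfbp3, 21.3% of the Igfbp5 and 11.8% of the Igfbp7 UMIs. Epithelial-like cells held 90.3% of the Igf1r and 84.2% of the Igf2r UMIs, and stromal-like cells held 6.45% of the Igf2r UMIs.

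**Figure D2:**
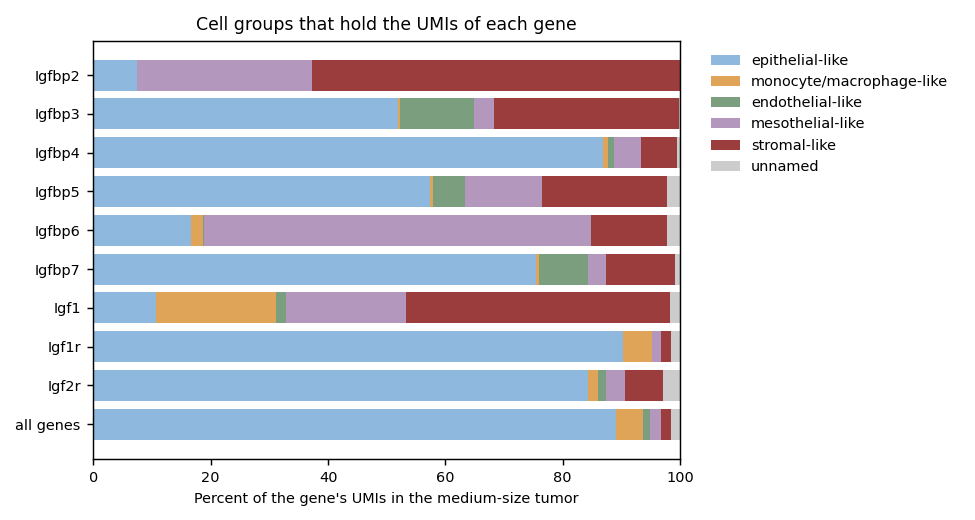
Percent of the UMIs of each gene in the medium-size tumor that lay in each cell group, with the split of all UMIs in the bottom bar. Epithelial-like cells hold 90.3% of Igf1r and 89.1% of all UMIs, stromal-like cells hold 6.02% of Igfbp4 and 6.45% of Igf2r against 1.64% of all UMIs, 65.9% of Igfbp6 lies in mesothelial-like cells and 45.1% of Igf1 in stromal-like cells.

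Across epithelial-like clusters, Igfbp3, Igfbp4 and Igfbp7 were highest or second highest in the cluster richest in genes of the epithelial-to-mesenchymal transition (EMT). In the medium-size tumor Igfbp5 was highest near the other end. Epithelial-like clusters were put in order by the summed CPM of Vim, Zeb1, Cdh2, Twist1, Tgfb1, Loxl2, Wnt5a and Ctgf. In the medium-size tumor the order from high to low was cluster 7 (led by Inhba and Bmp2, 2586 CPM), cluster 5 (Yap1 and Birc2, 1925 CPM), cluster 2 (Mcpt8 and Cldn6, 1372 CPM), cluster 3 (cycling cells with Ube2c and Birc5, 1368 CPM), cluster 6 (Krt17 and Cldn4, 676 CPM), cluster 1 (Gkn1 and Gkn3, 562 CPM), cluster 4 (Tff3 and Ly6d, 224 CPM) and cluster 8 (Dmbt1 and Lcn2, 163 CPM). In each tumor 7 of the 9 members were among the 2000 variable genes that drew the clusters, so differences between clusters carry no test.

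In that order, Igfbp4 stood at 1596, 502, 585, 564, 807, 229, 142 and 70.8 CPM, a range over which the share of thinned cells with a UMI fell from 93.9% to 11.5%. Igfbp3 stood at 276, 72.2, 59.0, 35.2, 94.5, 19.0, 12.4 and 12.8 CPM. Igfbp7 stood at 2016, 788, 1586, 694, 2651, 350, 263 and 176 CPM. The 3 genes were lowest in the 3 clusters with the least EMT transcript, while cluster 6, in the lower part of the EMT order, had the highest Igfbp7 and the second highest Igfbp3 and Igfbp4. Its place rested on Vim, which made 1572 of the 1925 CPM in cluster 5 and 247 of the 676 CPM in cluster 6. Without Vim the list summed to 1016 CPM in cluster 7, 455 CPM in cluster 2, 429 CPM in cluster 6, 354 CPM in cluster 5 and 283 CPM in cluster 3, and clusters 1, 4 and 8 were still the lowest (227, 162 and 120 CPM).

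Cluster 7 had Igfbp3 at 6.22 times (5.55 to 6.97), Igfbp4 at 3.63 times (3.48 to 3.79) and Igfbp7 at 2.24 times (2.16 to 2.32) the level of the other epithelial-like cells. These were 3 of 7 members tested, beside 7.88% of all genes, and Igfbp5, Igfbp6 and Igf2r were at least 2-fold lower, beside 12.7% of all genes. Igfbp6 rested on 3 UMIs in cluster 7 (ratio 0.465, 0.0930 to 1.43). Cluster 7 met the detection rule for 3 of 11 epithelial markers, and the sum of these markers was 6004 CPM there against 9928 to 16700 CPM in the other 7 clusters. The stromal marker list was at 34.2 CPM in cluster 7 and between 24.1 and 40.8 CPM in the other 7, with Pdgfra and Fap at 0, and the smooth muscle and pericyte list was at 11.1 CPM. The endothelial list was at 86.8 CPM in cluster 7, with all 11 genes found, and between 27.9 and 93.8 CPM in the other 7, against 5595 CPM in endothelial-like cells, and its part in the Igfbp3 and Igfbp7 levels was not tested. With cluster 7 left out, the highest cluster was cluster 5 and none of the 3 genes was 2-fold higher in it, so the count rests on that cluster. At resolution 1.2, where 226 of its 230 cells fell in unnamed clusters, 0 members were 2-fold higher in the EMT-highest cluster, and Igfbp5 and Igfbp6 were lower.

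The large-size tumor had its EMT genes highest in cluster 1 (led by Ggct and Ramp1, 1961 CPM), which also met the detection rule for 3 of 11 epithelial markers. Igfbp4 was 3.78 times (3.24 to 4.41) and Igfbp7 2.78 times (2.56 to 3.03) the level of the other epithelial-like cells, which were 2 of 2 members tested, beside 6.94% of all genes. Igfbp3, with 44 UMIs in all epithelial-like cells and so under the minimum of 50, had 37 of them in cluster 1 (82.0 CPM, 57.7 to 113). With the members and pathway genes left out of the clustering, 270 cells of this tumor were unnamed. The EMT-highest cluster then had 196 cells, and the lead of Igfbp3 in it was nearly lost, as given with the processing settings. The stromal marker list was at 11.1 CPM in cluster 1, with 7 of its 10 genes at 0. The endothelial list was at 129 CPM there, with 6 of its 11 genes at 0, Cdh5, Kdr and Cldn5 among them, and between 0 and 66.5 CPM in the other 6 epithelial-like clusters, against 5758 CPM in endothelial-like cells, and its part in the Igfbp3 and Igfbp7 levels was not tested. From the highest to the lowest EMT level, through clusters 1, 5, 3, 7, 9, 4 and 6, Igfbp7 stood at 2258, 1490, 784, 389, 755, 71.3 and 22.3 CPM and Igfbp4 at 800, 382, 193, 112, 0, 45.8 and 16.8 CPM. Cluster 9 broke both orders on 18553 UMIs, where a count of 0 allows up to 162 CPM. Clusters 9, 4 and 6, the low end of that order, held 3, 12 and 4 UMIs of the EMT genes. Cluster 4 was led by Papss2 and Fabp1, cluster 6 by Tff3 and Lgals2, and cluster 9 by Upk3a and Sprr2f. Whether these were carcinoma cells was not tested.

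**Figure D3:**
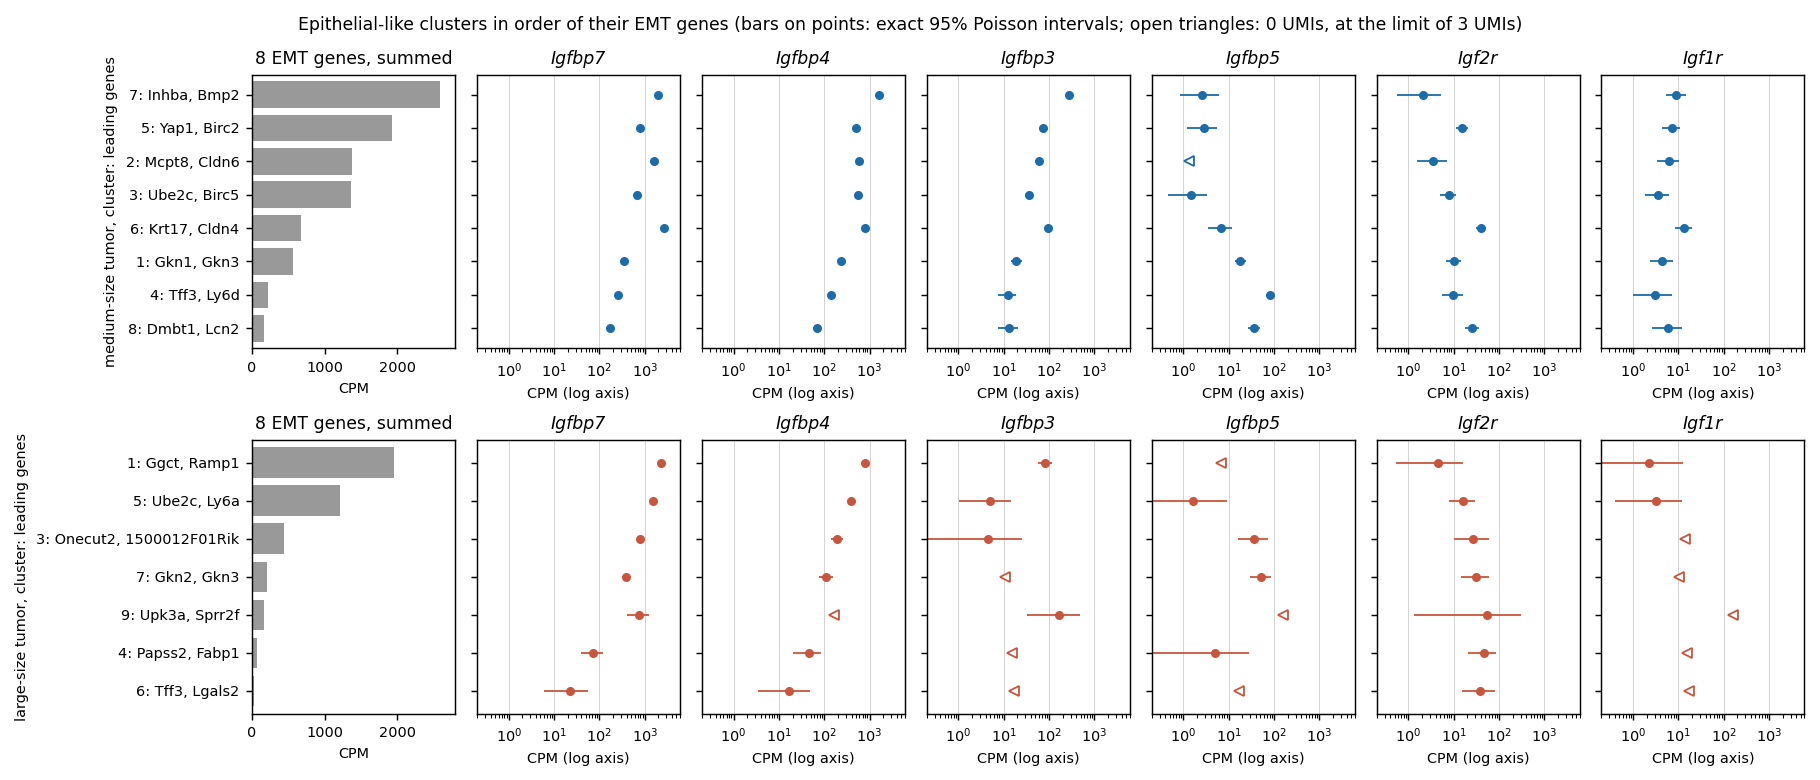
Epithelial-like clusters of the medium-size tumor (top, blue) and the large-size tumor (bottom, red) in order of the summed CPM of 8 EMT genes (grey bars), with the levels of Igfbp7, Igfbp4, Igfbp3, Igfbp5, Igf2r and Igf1r on log axes and exact 95% Poisson intervals. Igfbp4 goes from 70.8 CPM in the lowest to 1596 CPM in the highest cluster of the medium-size tumor, Igfbp5 has its 79.7 CPM in cluster 4 near the bottom, and open triangles mark 0 UMIs at the limit of 3 UMIs.

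Igfbp5 was highest in cluster 4 of the medium-size tumor, at 79.7 CPM (66.5 to 94.7), followed by cluster 8 at 36.9 CPM (27.3 to 48.8) and cluster 1 at 18.0 CPM (13.5 to 23.6). The other 5 clusters lay between 0 and 6.75 CPM, and cluster 2 had 0 UMIs, which allows up to 1.34 CPM. Cluster 4 was led by mucosal and regenerating genes (Tff3, Reg1, Reg3b and Reg3g) and cluster 8 by Dmbt1, Lcn2 and Sftpd. In cluster 4, Igfbp5 was the 1 member of 7 that was 2-fold higher than in the other epithelial-like cells, beside 5.52% of all genes, and Igfbp3, Igfbp4, Igfbp7 and Igf1r were 2-fold lower, beside 12.7%. Igf1r there rested on 5 UMIs (ratio 0.476, 0.151 to 1.14). Cluster 8 had Igfbp5 and Igf2r 2-fold higher, beside 10.3% of all genes, and Igfbp3, Igfbp4, Igfbp6 and Igfbp7 lower, beside 12.1%, with Igfbp6 on 2 UMIs (ratio 0.451, 0.0533 to 1.71). In cluster 1, Igfbp3, Igfbp4 and Igfbp7 were lower, beside 8.22% of all genes, and Igfbp6 was higher, on 19 UMIs, beside 3.22%. The large-size tumor had 23 of its 25 epithelial-like Igfbp5 UMIs in clusters 7 and 3, at 52.5 CPM (29.4 to 86.6) and 36.7 CPM (15.8 to 72.3), and 0 UMIs in cluster 1. These were the fourth and the third of the 7 clusters in EMT order, and the lowest clusters, 4 and 6, had 1 and 0 Igfbp5 UMIs, so Igfbp5 was not highest at the low end there. Cluster 7 there was led by Gkn2, Gkn3 and Tff1.

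Over the 8 epithelial-like clusters of the medium-size tumor, Pearson r of log2(CPM + 10) was 0.93 for Igfbp4 with Igfbp7, 0.92 for Igfbp3 with Igfbp4, 0.88 for Igfbp3 with Igfbp7 and -0.82 for Igfbp4 with Igfbp5. Over all 14 clusters the value for Igfbp4 with Igfbp5 was 0.26. The clusters share 1 library, so these values are descriptions. Among 4800 genes with at least 500 UMIs, those most like Igfbp7 over the 14 clusters were Lamb1 (r = 0.95), the basement membrane proteoglycan Hspg2 (0.93) and Bmpr2 (0.93). Igfbp3 was closest to Cops2 (0.97), Hspg2 (0.96) and Fermt2 (0.94), and Igfbp4 to Scoc (0.92), Cfl2 (0.91) and the N-cadherin gene Cdh2 (0.91), which is itself in the EMT list. The same pairs had r from 0.10 to 0.85 over 10 clusters in the large-size tumor.

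Cluster 6, led by Krt17 and Cldn4 with Tnc and Fn1, had the highest receptor levels among carcinoma clusters of the medium-size tumor. Igf2r was at 40.5 CPM (31.7 to 51.0) there, 4.06 times (3.03 to 5.38) the other epithelial-like cells, and Igf1r at 12.9 CPM (8.21 to 19.4), 2.37 times (1.43 to 3.79). The Igf1r interval overlapped that of cluster 7 (8.95 CPM, 5.21 to 14.3). With Igfbp7 at 3.16 times (3.05 to 3.26) these were 3 of 7 members, beside 9.22% of all genes, and Igfbp5 was 2-fold lower, beside 8.36%. Cluster 8 was the next highest in Igf2r (25.6 CPM, 17.7 to 35.8), and clusters 2 and 7 were lowest (3.58 and 2.10 CPM on 8 and 4 UMIs). In the large-size tumor Igf2r also had its lowest value in the EMT-high cluster 1 (2 UMIs, 4.43 CPM, 0.537 to 16.0), an interval clear only of that of cluster 4 (9 UMIs, 45.8 CPM), and the intervals of its other clusters overlapped each other.

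Between the tumors, Igfbp3 was the member with over 500 UMIs that differed most in epithelial-like cells. It was at 22.5 CPM (44 UMIs) in the large-size and 68.8 CPM (1244 UMIs) in the medium-size tumor, a ratio of 0.327 (0.236 to 0.441). Igfbp4 was at 347 and 561 CPM (ratio 0.619, 0.572 to 0.669), Igfbp7 at 1145 and 1018 CPM (1.12, 1.08 to 1.18), and Igf2r at 22.5 and 13.0 CPM (1.73, 1.22 to 2.39). Of 7 members tested none was 2-fold higher in the large-size tumor, beside 6.95% of all genes, and Igfbp3, Igfbp6 and Igf1r were 2-fold lower, beside 21.5%. Igfbp6 (3 and 58 UMIs) and Igf1r (3 and 112 UMIs) rested on 3 UMIs in the large-size tumor, and the interval of Igfbp6 held 1. Igfbp3, Igfbp6 and Igf1r reached the minimum UMI count only through the medium-size tumor, where they were high. The count of lower members beside the share of all genes is therefore a description only. The median log2 ratio of all genes was -0.21, and TMM and DESeq2 scaling took out shifts of -0.17 and -0.19. Relative to such scaling Igfbp3 stayed low at 0.366 and 0.373, and Igfbp5, at 0.885 (0.562 to 1.34) by CPM, came to 0.992 and 1.01, while Igf2r came to 1.94 and 1.98.

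**Figure D4:**
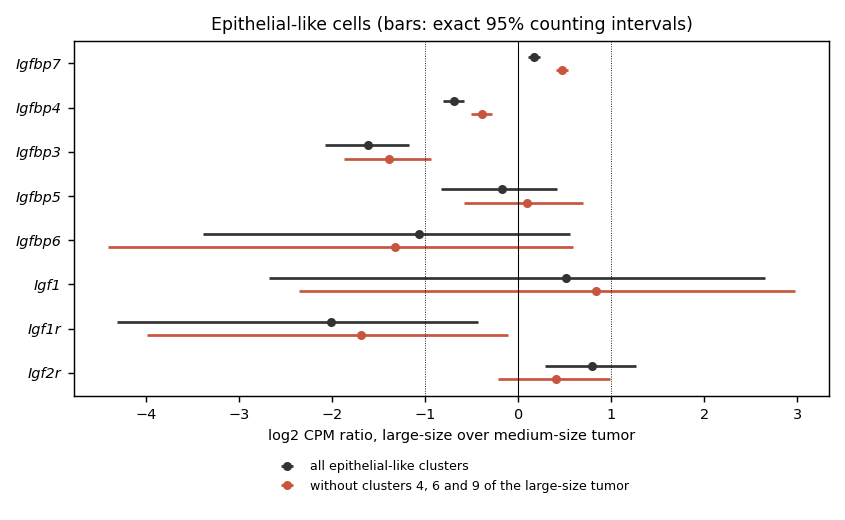
Log2 ratio of CPM in epithelial-like cells, large-size over medium-size tumor, for 8 IGF axis genes with exact 95% counting intervals, from all epithelial-like clusters (black) and with large-size clusters 4, 6 and 9 taken out (red); dotted lines mark 2-fold. Igfbp3 lies at -1.61 and -1.39, Igfbp7 at 0.17 and 0.47, the intervals of Igfbp5, Igfbp6 and Igf1 span 0, and that of Igf2r spans 0 in the second set only.

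The makeup of the epithelial-like cells differed between the tumors. Clusters 4 and 6 of the large-size tumor were led by genes of absorptive (Fabp1, Fabp2, Guca2b) and goblet (Muc2, Tff3) cells of the gut and had 71.3 and 22.3 CPM of Igfbp7. Without them and cluster 9, the ratio was 0.381 for Igfbp3, 0.761 for Igfbp4, 1.39 for Igfbp7, 1.06 for Igfbp5 and 1.33 for Igf2r, whose interval then held 1 (log2 ratio 0.41, -0.22 to 0.99). At a common depth of 500 UMIs per cell, Igfbp7 was found in 30.6% of epithelial-like cells in the medium-size and 29.6% in the large-size tumor, Igfbp4 in 18.2% and 12.0%, and Igfbp3 in 2.96% and 0.984%. Among monocyte/macrophage-like cells at that depth, Igfbp7 was found in 5.88% and 2.77% and Igfbp4 in 5.88% and 1.58%.

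Clusters of like leading genes allowed a closer pairing. The cycling clusters (large-size cluster 5 and medium-size cluster 3, which shared Birc5, Cenpa, Hmgb2 and Ube2c) had Igfbp7 at 1490 and 694 CPM, a ratio of 2.15 (1.99 to 2.32) beside 6.41% of all genes that much higher, and Igfbp3 at 4.92 CPM on 3 UMIs and 35.2 CPM, beside 19.1% of all genes that much lower. The gastrokine clusters (large-size cluster 7 and medium-size cluster 1, which shared Agr2, Gkn1, Gkn2 and Gkn3) had Igfbp7 at 389 and 350 CPM (ratio 1.11, 0.905 to 1.35), Igfbp4 at 112 and 229 CPM (0.489, 0.332 to 0.697, beside 21.3% of all genes 2-fold lower) and Igfbp5 at 52.5 and 18.0 CPM (2.92, 1.53 to 5.25, beside 8.45% of all genes 2-fold higher). With 1 mouse per size, tumor size and mouse cannot be told apart.

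In stromal-like cells, Igf1 was higher in the large-size tumor (587 against 166 CPM, ratio 3.54, 2.30 to 5.42), beside 9.47% of all genes that much higher. Igfbp3 (235 against 2274 CPM, ratio 0.103, 0.0587 to 0.169) and Igfbp5 (58.7 against 292 CPM, 0.201, 0.0537 to 0.531) were lower, beside 19.9% of all genes. Igfbp3 rested on 16 and 755 UMIs and Igfbp5 on 4 and 97. Both reached the minimum of 50 UMIs only through the medium-size tumor, where they were high, so these calls are a description only. Igfbp4 was at 0.575 times (0.452 to 0.723) and Igfbp7 at 0.549 times (0.488 to 0.616) the level of the medium-size tumor. The stromal-like groups differed in makeup: the smooth muscle and pericyte list was at 3232 CPM in the medium-size tumor, with all 7 genes found, and at 1027 CPM in the large-size tumor, with Rgs5, Myh11, Cspg4, Notch3 and Kcnj8 at 0. The mesothelial list was at 139 and 308 CPM and the stromal list at 14577 and 15789 CPM, and the part of this makeup in the differences was not tested. In endothelial-like cells Igfbp3 did not differ beyond counting error (0.879, 0.514 to 1.41) and Igfbp7 was at 1.35 times (1.16 to 1.57).

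Of the proteases that free IGFs from their carriers, in the medium-size tumor, Pappa and Htra1 were highest in stromal-like cells and Adamts1 in endothelial-like cells. Pappa, whose product cleaves IGFBP4 and IGFBP5, had 100 of its 156 UMIs in stromal-like cells in the medium-size tumor (301 CPM, 245 to 366), 32 in mesothelial-like cells (81.7 CPM) and 23 in epithelial-like cells (1.27 CPM). Of those 23 UMIs 13 lay in the EMT-high cluster 7 (6.84 CPM). Htra1, a serine protease known to cut IGFBP5, was at 313 CPM in stromal-like, 153 CPM in mesothelial-like and 15.6 CPM in epithelial-like cells, and Adamts1 was at 212 CPM in endothelial-like, 156 CPM in mesothelial-like, 51.2 CPM in stromal-like and 27.2 CPM in epithelial-like cells. The Adamts1 levels in endothelial-like and mesothelial-like cells did not differ beyond counting error (ratio 1.36, 0.918 to 2.01). Pappa2 had 5 UMIs. All 5 Pappa UMIs of the large-size tumor were in stromal-like cells.

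The stanniocalcins, which inhibit PAPP-A, were split between carcinoma states. Stc1 was at 145 CPM (107 to 192) in stromal-like, 67.9 CPM in endothelial-like and 17.2 CPM in epithelial-like cells (medium-size tumor), and within the latter 156 of its 311 UMIs were in cluster 7 (82.1 CPM), a ratio of 8.58 (6.82 to 10.8) over the others. Stc1 was likewise highest among carcinoma clusters in cluster 1 of the large-size tumor (44 of 77 UMIs, 97.5 CPM, ratio 4.45, 2.77 to 7.22). Stc2 had 0 of 103 epithelial-like UMIs in cluster 7 of the medium-size tumor and 0 of 20 in cluster 1 of the large-size tumor. Between the tumors, Stc1 in epithelial-like cells was 2.29 times (1.76 to 2.94) as high in the large-size one.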

How the data were processed

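Cells of 1 medium-size and 1 large-size KPC tumor were dissociated with the Miltenyi mouse tumor kit and run on the 10x Chromium 3′ v2 chemistry. The deposited values are raw UMI counts that the authors obtained with Cell Ranger on mm10, per the labels; the Cell Ranger version, annotation and cell calling are not given in the sources used here. The 4 technical replicates of each tumor share 1 table, so each tumor is 1 sample and no test was run. The full genotype of the mice is not reported here.

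All barcodes were kept. Counts were clustered in Seurat 5.3.0 (R 4.3.3; log normalization to 10000, 2000 variable genes, 10 principal components, resolution 0.8), after the settings of the study. A cluster took a name from at least 3 detected markers of a fixed list. Scrublet called 0 doublets in the medium-size and 9 (0.587%) in the large-size tumor, and none was removed; a setting without the highest 5% of doublet scores was tried. UMIs were summed per group with exact Poisson intervals, ratios have the exact conditional interval, and genes with at least 50 UMIs over both sums together formed the background at 2-fold; for stromal-like over epithelial-like cells the minimum was set on the epithelial-like sum alone, a choice made after seeing the data. In the other comparisons a gene can reach the minimum only through the cells where it is high, and the genes of the background were taken the same way. A sum of 0 was set to 3 counts. Shares were thinned to 2500 or 500 UMIs per cell, which left out 0 cells. TMM (edgeR 4.0.16) and DESeq2 1.42.0 size factors were alternatives. The ratio calls and likeness ranking were tested on simulated data.

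The members and all lists were chosen with earlier results of these data known. Named genes are the 9 members; of 37 other pathway genes, all ligands, proteases and PAPP-A inhibitors, and those with at least 50 UMIs and 1 group 2-fold above every other; and for members of at least 500 UMIs the 3 genes with the highest r. Leading genes, markers and the EMT list serve as references.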

Additional observations from a re-analysis of the deposited data

How the results depend on the processing

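Of 475 recomputed log2 ratios, 336 belonged to a reported value whose counting interval left out 0, and 331 of these kept their sign. Of the 139 others, 14 changed sign. Besides the 5 reversals, 61 moved out of the counting interval. Some ratios could not move. The settings with no UMI filter and with a minimum of 200 UMIs change only which members are counted. Leaving out cells with fewer than 500 genes took out 0 cells of the medium-size tumor. The 331 include such ratios, so they are no measure of stability by themselves. The EMT comparison of the medium-size tumor depended on 1 cluster: 0 members instead of 3 were at least 2-fold higher at resolution 1.2, where 226 of the 230 cells of cluster 7 fell in clusters left unnamed, and 0 with cluster 7 left out (chosen after seeing the data). There the highest cluster gave log2 ratios of -0.23 and -0.23 for Igfbp7 and 0.17 and 0.15 for Igf2r, both reversed. At resolution 0.4, with 20 principal components and with the members and pathway genes left out of the clustering, 3 were higher, and in the large-size tumor 2 of the members with at least 50 UMIs were higher under each alternative run there. With the members left out of clustering, 270 cells of the large-size tumor fell in unnamed clusters, and 949 instead of 1219 cells were epithelial-like. Its EMT-highest cluster then had 196 cells, against 279 in cluster 1, and Igfbp3 in it came to a log2 ratio of 0.12. At resolution 1.2 the EMT-highest cluster of that tumor had 154 cells. Whether these clusters held the cells of cluster 1 was not tested. At resolution 0.4 and with 20 components no stromal-like or mesothelial-like cluster was named in the medium-size tumor, because 67 and 65 of the 67 stromal-like cells and 74 and 73 of the 74 mesothelial-like cells fell in unnamed clusters, so those ratios have no value. Between the tumors, 1 member instead of 0 was 2-fold higher with no filter (Igfbp2, on 6 and 5 UMIs) and 1 with all cells (Igf1), where Igfbp2 reversed to a log2 ratio of -0.078, and 1 instead of 3 was 2-fold lower at a minimum of 200 UMIs, which drops Igfbp6 and Igf1r. With the minimum of 50 UMIs set on both sums together, 7 of 8 members in the medium-size and 3 of 3 in the large-size tumor were 2-fold higher in stromal-like cells; Igf1 (55 stromal-like and 13 epithelial-like UMIs) and, in the large-size tumor, Igfbp3 (16 and 44) passed that minimum only through their stromal-like UMIs. Of the 9 most alike genes, 0 were shared when only epithelial-like clusters were used; the cause was not tested. No paired analysis was possible because the technical replicates, which share numbers, are pooled in 1 table per tumor, and for the same reason no replicate could be left out.

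Depth limits the large-size tumor most: a count of 0 allows up to 1.53 CPM in its epithelial-like, 44.0 CPM in its stromal-like and 188 CPM in its endothelial-like cells, against 0.166, 9.04 and 12.7 CPM in the medium-size tumor.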

Other observations

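Of 37 other pathway genes, 25 had at least 50 UMIs outside their highest cell group in the medium-size tumor, and 8 of these had 1 group at least 2-fold above every other, beside 14.7% of all such genes. Stromal-like cells led in Lrp1, an endocytic receptor (343 CPM, against 156 CPM in mesothelial-like and 27.7 CPM in epithelial-like cells), with Pappa, Htra1 and Stc1. Endothelial-like cells led in the insulin receptor Insr (46.7 CPM on 11 UMIs, against 17.9 CPM in mesothelial-like cells, ratio 2.61, 0.925 to 7.95, an interval that holds 1), the exchange factor Sos1 (29.7 CPM) and the kinase Pdpk1 (63.7 CPM). Monocyte/macrophage-like cells led in Irs2, an adaptor of insulin and IGF receptors (63.0 CPM, 47.8 to 81.4, against 16.6 CPM in epithelial-like cells), while Irs2 had 0 UMIs in the monocyte/macrophage-like cells of the large-size tumor, which allows up to 15.3 CPM. In the EMT-high cluster 7 of the medium-size tumor, 5 of 26 pathway genes tested were at least 2-fold higher than in the other epithelial-like cells and 1 was lower, beside 7.88% and 12.7% of all genes. Between the tumors, 2 of 26 were 2-fold higher and 4 lower in the large-size one, beside 6.95% and 21.5% of all genes.

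In the medium-size tumor, most macrophage Igf1 UMIs lay in the larger macrophage cluster: cluster 9, led by Wfdc17, Chil3 and Lyz2, had 23 UMIs (31.4 CPM, 19.9 to 47.2), and cluster 13, led by Cd74, C1qa and C1qb, had 2 UMIs (10.6 CPM, 1.28 to 38.3), intervals that overlap. The unnamed cluster 12, whose median doublet score of 0.147 was the highest of the 14 clusters, had Igfbp7 at 640 CPM and Igfbp4 at 216 CPM, between the monocyte/macrophage-like and epithelial-like levels. Igfbp3 (12.2 CPM) and Igf1 (6.10 CPM) also lay between. Igfbp5 (30.5 CPM), Igfbp6 (24.4 CPM) and Igf2r (24.4 CPM) lay above both levels, on 10, 8 and 8 UMIs. Their intervals reached into those of the epithelial-like or the monocyte/macrophage-like cells.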
